A study of Mus musculus with 40 samples.

Results

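A set of 9 genes of oligodendrocyte precursor cells (OPCs) was followed through 40 RNA-seq libraries of mouse striatum: *Pdgfra*, *Cspg4*, *Olig1*, *Olig2*, *Sox10*, *Gpr17*, *Bmp4*, *Neu4* and *C1ql1*. They were chosen by symbol, and each of the 9 matched 1 of the 24060 rows of the gene count table. The libraries form 10 groups of 4 and came, per the design text, from 24 mice. In the RiboTag groups an adeno-associated virus (AAV) placed a hemagglutinin-tagged ribosomal protein, *Rpl22*-HA, in 1 cell type of the striatum. RNA bound to the tagged ribosomes was immunoprecipitated (IP) and sequenced beside RNA of the whole lysate (input), which holds all cell types.

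The Control cohort (Control input and Control IP) and the Syn cohort (Syn input and Syn IP) were C57/BL6NTac mice, given the AAV at 6 weeks of age per the study's methods. In the Syn cohort the human synapsin promoter drove the tag in neurons. The labels name no AAV for the Control cohort. The study's methods give an astrocyte tag, driven by the GfaABC1D promoter, as the other of the RiboTags used in these mice, and 10 of 10 astrocyte markers were higher in the Control IP than in its input. The SAPAP3 cohort held C57/BL6J wild-type mice (SAPAP3 WT) and C57/BL6J-Dlgap3 KO mice (SAPAP3 KO), which carry a constitutive deletion in *Dlgap3*, the gene of the postsynaptic protein SAPAP3, and were 4.5 months old at AAV injection. The age of their wild-type controls was not given in the sources used here. The labels name no cell type for this IP, in which 10 of 10 astrocyte markers were likewise higher than in input, in both genotypes. The bulk groups (bulk WT and bulk KO) were whole striatum without immunoprecipitation, with C57/BL6NTac as the strain label of both genotypes, unlike the SAPAP3 RiboTag mice. In the bulk groups 1 animal number stands on 1 bulk WT and 1 bulk KO library. Levels of *Dlgap3* in KO and WT libraries did not overlap, with means of 180 against 421 counts per 1000000 reads (CPM) in input, 65.5 against 175 in IP and 153 against 333 in bulk. Total counts ran from 23438112 to 84109800 per library.

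OPCs are the dividing cells of the adult brain that give rise to myelinating oligodendrocytes. *Pdgfra* encodes their receptor for platelet-derived growth factor, and *Cspg4* encodes the proteoglycan NG2 on their surface. *Olig1*, *Olig2* and *Sox10* encode transcription factors that are kept through the whole lineage, so these transcripts also come from mature oligodendrocytes. *Gpr17*, a G protein-coupled receptor, *Bmp4*, a secreted bone morphogenetic protein, and *Neu4*, a sialidase, mark the passage from the precursor to the newly committed cell, and *C1ql1* encodes a secreted C1q-like protein. *Pdgfra*, *Cspg4* and *Bmp4* are not exclusive to the lineage, since *Pdgfra* also marks fibroblasts, *Cspg4* also marks pericytes, and *Bmp4* is also made by vascular cells. In bulk tissue and input, fewer cells of a type and less RNA per cell cannot be told apart.

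The RefSeq promoter table (GRCm38.p6) held 5 of the 9 genes. The 250 bases before the annotated start are shown for 3 of them, since their IP over input values in the Control cohort differed: the log2 fold change was 0.74 for *Cspg4*, 0.16 for *Olig2* and -1.07 for *Bmp4*. Capitals mark 2 kinds of motif searched on both strands, the E-box CANNTG, read by basic helix-loop-helix factors such as OLIG2, and the hexamers bound by SOX proteins, ACAAAG or the related form ACAATG.
Cspg4 (chr9:56864854-56865103, plus strand): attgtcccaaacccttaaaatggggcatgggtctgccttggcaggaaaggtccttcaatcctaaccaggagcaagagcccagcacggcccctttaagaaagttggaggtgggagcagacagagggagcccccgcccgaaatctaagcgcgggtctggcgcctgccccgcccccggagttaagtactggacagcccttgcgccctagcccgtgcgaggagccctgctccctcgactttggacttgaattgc
Olig2 (chr16:91225300-91225549, plus strand): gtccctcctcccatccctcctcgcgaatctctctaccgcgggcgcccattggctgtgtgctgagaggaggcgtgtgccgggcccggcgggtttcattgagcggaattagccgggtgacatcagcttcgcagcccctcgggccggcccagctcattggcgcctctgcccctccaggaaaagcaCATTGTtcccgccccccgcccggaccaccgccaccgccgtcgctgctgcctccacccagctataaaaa
Bmp4 (chr14:46390670-46390919, minus strand): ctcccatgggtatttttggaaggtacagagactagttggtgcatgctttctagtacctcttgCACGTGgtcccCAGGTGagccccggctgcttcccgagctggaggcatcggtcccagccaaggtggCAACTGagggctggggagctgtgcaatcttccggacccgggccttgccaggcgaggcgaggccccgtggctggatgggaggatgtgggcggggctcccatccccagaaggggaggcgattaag
The *Bmp4* window held 3 E-boxes, the *Olig2* window 1 SOX-type hexamer, and the *Cspg4* window neither motif. Of 32851 windows of this length in the table, 66.2% held an E-box and 25.2% a SOX-type hexamer. These matches describe the letters only.

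In the mm10 assembly (GRCm38.p6, RefSeq annotation) *Olig2* (chr16:91225550-91228677, plus strand) and *Olig1* (chr16:91269769-91271939, plus strand) are neighbours, 41092 bp apart. *Pdgfra* is at chr5:75151322-75198206 (plus), *Cspg4* at chr9:56865104-56899870 (plus), *Sox10* at chr15:79154913-79164490 (minus), *Bmp4* at chr14:46383525-46390669 (minus), *Neu4* at chr1:94020493-94028334 (plus) and *C1ql1* at chr11:102939264-102946716 (minus). *Gpr17* is on the minus strand of chromosome 18. Exons on the opposite strand share 188 bp with *Gpr17* (the gene *Lims2*), 99 bp with *Olig2* and 84 bp with *Bmp4*. Whether counting used the strand was not given in the sources used here, so reads in those stretches cannot be assigned to 1 gene.

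Levels between genes were compared per length, in FPKM (CPM per kilobase) from the RefSeq exon length. In Control input the order was *Olig1* (40.5 FPKM), *Sox10* (19.5), *Olig2* (11), *Gpr17* (9.57), *Pdgfra* (8.06), *Cspg4* (3.97), *C1ql1* (3.81), *Neu4* (2.61) and *Bmp4* (0.984). Only *Cspg4* and *C1ql1* overlapped as neighbours in that order. *Olig1* had the highest and *Bmp4* the lowest FPKM in each of the 10 groups. *Bmp4* rested on 16 to 252 counts per library, so its values are the least precise of the set.

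**Figure D1:**
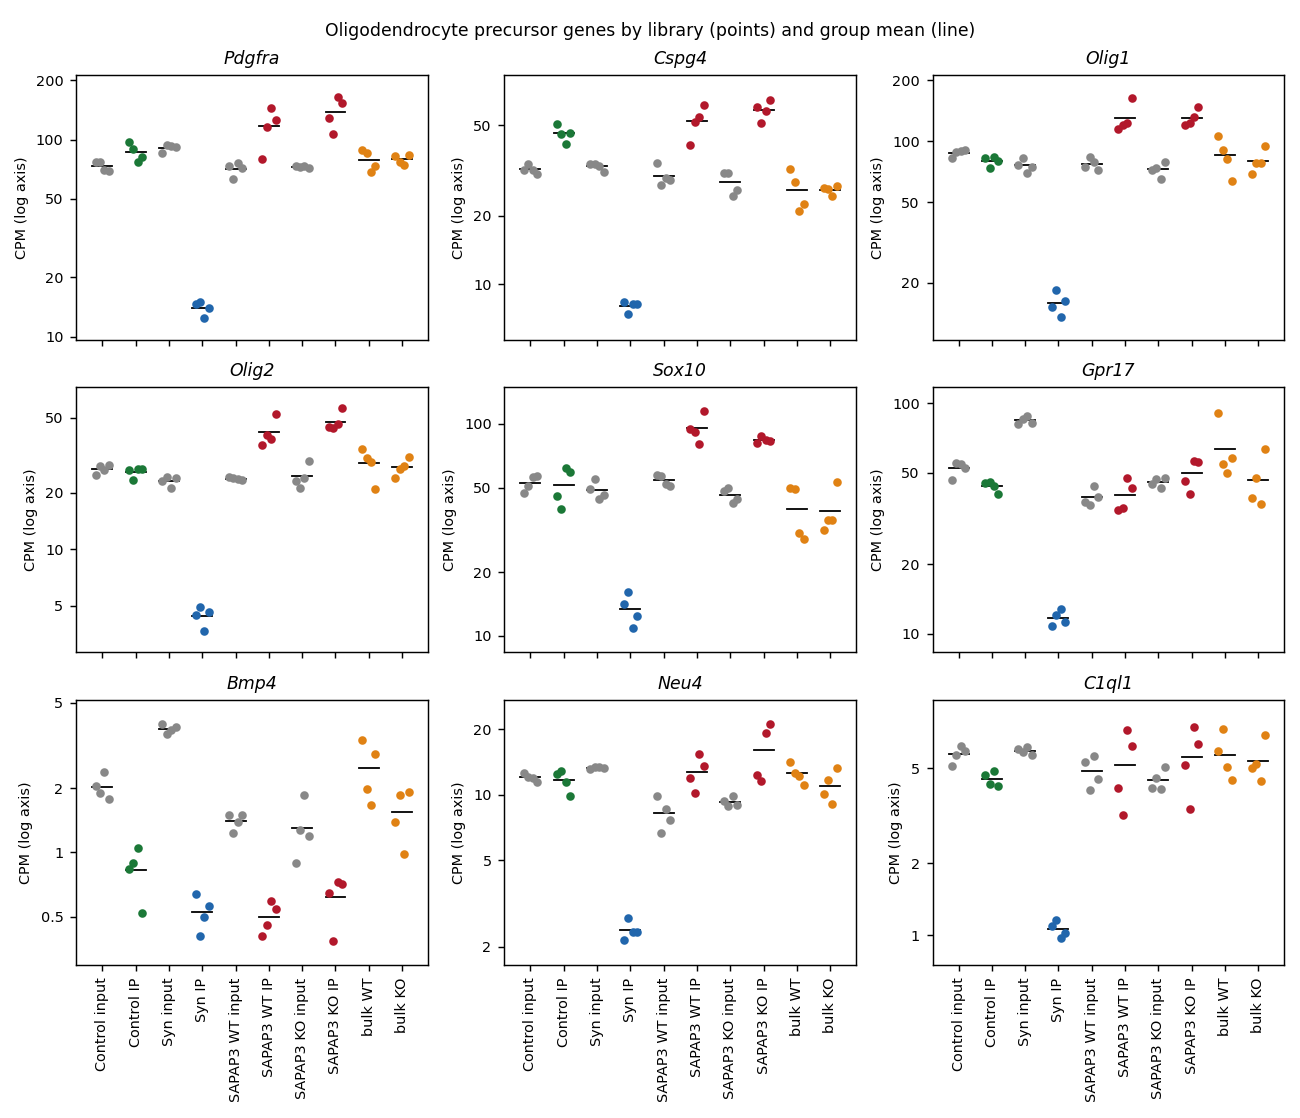
CPM (log axis) of the 9 OPC genes in each of 40 libraries (points) with the group mean (line), for 10 groups of 4. The Syn IP points lie below those of every other group for 8 genes; for *Bmp4* they overlap the IP groups of the SAPAP3 cohort and the Control IP.

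The Syn IP, the neuronal ribosome fraction, had the lowest level of 8 of the 9 genes, and its 4 libraries did not overlap those of the next group in the order for any of the 8. *Pdgfra* was at 14.7, 15.0, 12.5 and 14 CPM in the 4 Syn IP libraries and at 85.1, 94.0, 92.6 and 92.3 CPM in the Syn input. *Gpr17* was at 10.8, 12, 12.7 and 11.2 CPM in the IP and at 81.3, 85.8, 87.9 and 82.2 CPM in the input, the highest input level of this gene in the series. *Olig2* was at 4.49, 4.92, 3.67 and 4.62 CPM in the IP against 23.2, 24.1, 21.1 and 23.8 CPM in the input. Every input library thus lay above every IP library for these 3 genes, as for 33.4% of all genes tested. *Bmp4* was at 0.642, 0.409, 0.499 and 0.564 CPM in the IP and at 3.99, 3.58, 3.75 and 3.86 CPM in the input, again without overlap.

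All 9 genes were called lower in the Syn IP than in its input, where 15.8% of all genes tested were called lower (edgeR quasi-likelihood test, Benjamini-Hochberg adjusted p under 0.05 and log2 fold change beyond 1 in size). The fold changes are on the scale of trimmed mean of M-values (TMM), which in the 4 IP comparisons adds between 0.17 and 0.22 to the log2 ratio of the CPM values. Among the receptors, *Gpr17* had a log2 fold change of -2.64 (SE 0.06, adjusted p = 4.0e-09) and *Pdgfra* of -2.49 (SE 0.06). The secreted *Bmp4* (-2.63, SE 0.14) and *C1ql1* (-2.27, SE 0.09) and the sialidase *Neu4* (-2.27, SE 0.08) were of like size. The transcription factors *Olig2* (-2.18, SE 0.08), *Olig1* (-2.06, SE 0.09) and *Sox10* (-1.67, SE 0.11) and the proteoglycan *Cspg4* (-1.83, SE 0.06) had values nearer to 0, and differences between genes were not tested. The median of the 9 genes was -2.27, and that of all genes was -0.0023.

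Other lists of the lineage moved the same way by less at the median. All 10 mature oligodendrocyte genes were called lower (median -1.57), the most for *Mobp* (-2.57) and *Opalin* (-2.08), both of the myelin-forming cell. Of 12 genes of committed cells 8 were called lower (median -1.25), led by *Bcas1* (-2.27), a marker of newly formed oligodendrocytes. Of 16 other OPC markers 6 were called lower (median -0.70), with *Matn4* (-1.84), an extracellular matrix protein, and *Pcdh15* (-1.55), a protocadherin, at the head. Of 16 further transcription factors of the lineage 6 were called lower (median -0.71), led by *Zfp488* (-2.50) and *Nkx2-2* (-2.25), which act with the OLIG factors in differentiation. Marker lists of cells outside the lineage lay on both sides of the OPC genes. Medians were lower for microglia (-4.34), endothelium (-3.6) and fibroblasts (-3.53), and nearer to 0 for mural cells (-0.87, 4 of 10 called lower and 1 higher) and astrocytes (-0.55, 1 of 10 called lower). The median of 10 neuron markers was 0.70, with 3 called higher. The summed level of the 9 OPC genes ran from 65.3 to 78.1 CPM in the Syn IP and from 371.8 to 398.4 CPM in the Syn input.

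In the Control cohort, IP and input held similar levels of most OPC genes. *Olig1* was at 82.4, 74.0, 83.6 and 79.5 CPM in the Control IP and at 82.5, 88.8, 89.6 and 90.7 CPM in the input. *Olig2* was at 26.4, 23.2, 26.5 and 26.6 CPM in the IP and at 24.8, 27.7, 26.5 and 28.1 CPM in the input. *Gpr17* was at 45.3, 45.4, 43.5 and 40.2 CPM in the IP and at 46.4, 55.1, 54.6 and 52.5 CPM in the input. Mean CPM was thus slightly lower in the IP for all 3 genes. On the TMM scale, which adds 0.22 to the log2 ratio here, the log2 fold changes of *Olig1* and *Gpr17* were 0.08 (SE 0.05, adjusted p = 0.11) and -0.04 (SE 0.06, adjusted p = 0.58), with overlapping libraries.

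The surface markers of the precursor, *Pdgfra* and *Cspg4*, rose in the Control IP. *Cspg4* was at 50.7, 45.8, 41.4 and 46.2 CPM in the IP and at 31.9, 33.9, 31.7 and 30.5 CPM in the input. Every IP library lay above every input library, as for 36.5% of all genes tested. Its log2 fold change was 0.74 (SE 0.06, adjusted p = 5.1e-07). *Pdgfra* followed with 0.46 (SE 0.07, adjusted p = 9.0e-05), and its libraries, at 77.0 to 97.0 CPM in the IP and 69.5 to 77.3 CPM in the input, did not overlap on the TMM scale. *Olig2* also passed the adjusted p with 0.16 (SE 0.06, adjusted p = 0.023), but its libraries overlapped, the value is smaller than the TMM shift, and by CPM its mean was lower in the IP (25.7 against 26.7). None of the 3 exceeded the log2 limit of 1, and 39.2% of all genes passed in this direction without that limit. *Sox10* (0.19, SE 0.13), *Neu4* (0.18, SE 0.09) and *C1ql1* (-0.12, SE 0.09) did not pass.

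*Bmp4* was the 1 member called in the Control cohort, and it was lower in the IP. It was at 0.840, 0.889, 1.05 and 0.522 CPM in the Control IP and at 2.05, 1.90, 2.37 and 1.78 CPM in the input, and the groups did not overlap, as for 38.6% of all genes in this direction. The log2 fold change was -1.07 (SE 0.21, adjusted p = 6.6e-04). Of all genes tested in this cohort, 26.9% were called, 13.4% higher and 13.5% lower, a larger share than 1 of 9. The call was lost without Control IP replicate 4 (-0.89) or Control input replicate 3 (-0.97), as the value then fell short of the fold limit. Scaling on ribosomal protein genes in place of TMM raised the median log2 fold change of all genes to 1.17 in this cohort and turned the signs of *Bmp4* (0.13), *Gpr17* (1.16) and *C1ql1* (1.08), and relative to that median the 3 values were -1.04, -0.01 and -0.09.

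Marker lists were compared in the same IP. The 10 astrocyte markers had a median log2 fold change of 2.93, the 10 microglia markers -5.31 and the 10 endothelial markers -3.54, with 10 of 10 called in each list. The 10 neuron markers had a median of -0.79, with 2 called lower, and the 9 mural markers tested one of -1.31, with 6 called lower and 2 higher. The 9 OPC genes had a median of 0.16, and the 10 mature oligodendrocyte genes of 0.02. The other OPC markers lay higher at the median (0.86), with 7 of 16 called higher, led by *Ptprz1* (2.66), *Bcan* (2.40), *Rlbp1* (2.35) and *Ncan* (2.03). These 4 genes are also expressed by astrocytes. Members of the same list also went the other way by mean CPM. *Lhfpl3* was at 23.1 CPM in the Control IP and 47.0 in its input, *Cacng4* at 19.3 and 36.4, and *Pcdh15* at 13.5 and 18.6. Of 16 lineage transcription factors 7 were called higher, led by *Sox9* (3.40) and *Id2* (2.23), of which *Sox9* is also an astrocyte factor.

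The pathways around *Pdgfra* and *Bmp4* were measured in the same IP. Of 5 genes of PDGF signalling, *Pdgfrb*, a PDGF receptor, was called higher (1.45) and *Pdgfb*, a PDGF ligand, lower (-1.88). *Pdgfa*, a ligand of the PDGFRA receptor, had a log2 fold change of -0.60 and was not called. Of 18 genes of BMP signalling 6 were called higher and 3 lower. The receptors *Bmpr1b* (2.41) and *Bmpr1a* (1.40) and the target gene *Id3* (1.97) were higher, and *Fst*, an antagonist, was lower (-1.31). Of the genes related to *C1ql1*, *C1ql3* was called higher (1.42), and of 3 other sialidases *Neu2* was called lower (-1.04).

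**Figure D2:**
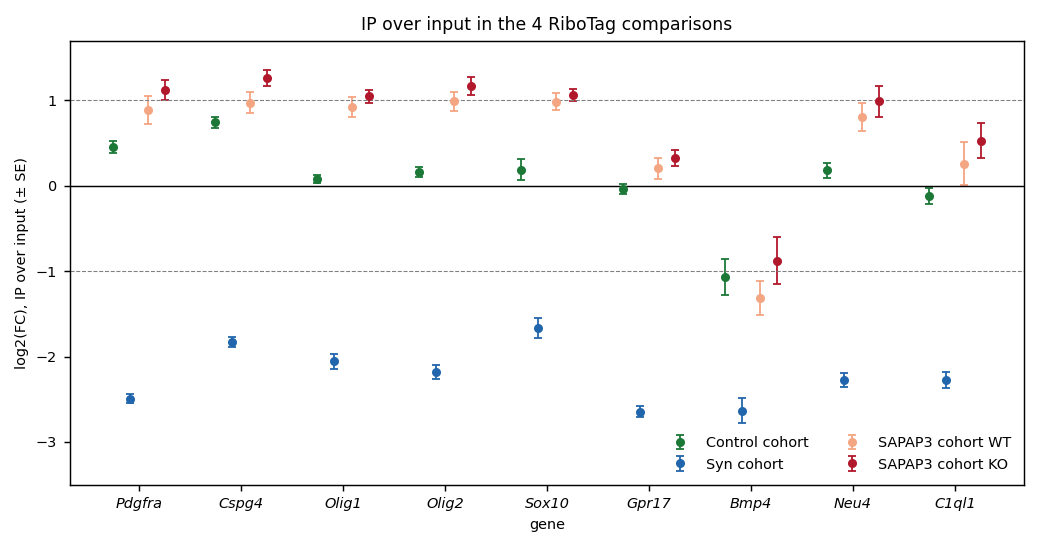
Log2 fold change of IP over input (points, with SE as bars) of the 9 OPC genes in the Control cohort, the Syn cohort and the WT and KO mice of the SAPAP3 cohort, 4 libraries against 4 in each. Dashed lines mark the fold limit of 1; all Syn values lie below -1.6 on this axis, and *Bmp4* is the 1 gene below 0 in all 4 comparisons.

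The Control and Syn cohorts were compared directly by an interaction term. IP over input was higher in the Control than in the Syn cohort for 9 of 9 genes, where 34.3% of all genes passed in that direction and 70.1% in either. The difference was 2.95 (SE 0.10) on the log2 scale for *Pdgfra*, 2.61 (SE 0.09) for *Gpr17*, 2.57 (SE 0.09) for *Cspg4* and 2.34 (SE 0.10) for *Olig2*. It was smallest for *Bmp4*, at 1.57 (SE 0.25, adjusted p = 3.2e-05).

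**Figure D3:**
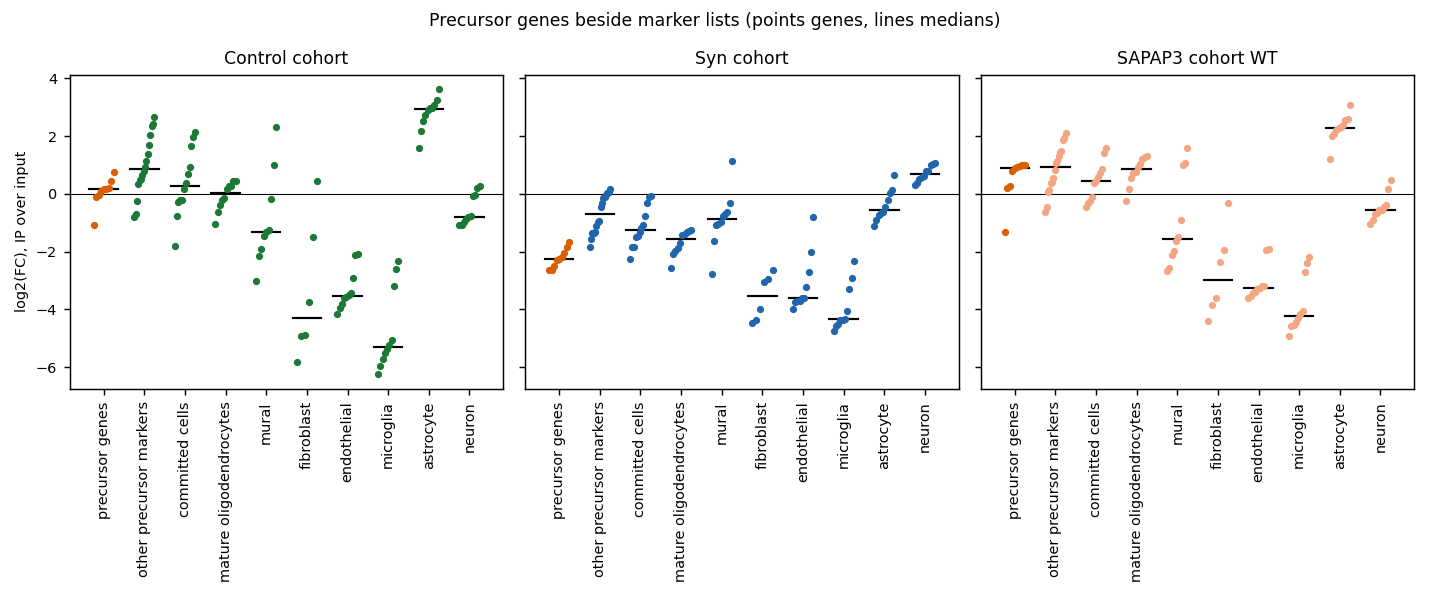
Log2 fold change of IP over input for the 9 OPC genes (orange) and 9 lists of cell type markers, in the Control cohort, the Syn cohort and the WT mice of the SAPAP3 cohort, with genes as points and the median of each list as a line. In the Syn cohort the OPC genes (median -2.27) lie below the neuron markers (median 0.70). In every panel the median of the OPC genes lies between those of the astrocyte and the microglia markers.

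In the SAPAP3 cohort most OPC genes were higher in the IP than in the input, in WT as in KO mice. *Olig1* was at 115, 120, 123 and 164 CPM in the SAPAP3 WT IP and at 74.9, 83.8, 79.1 and 71.8 CPM in its input. *Sox10* was at 95.2, 91.3, 80.8 and 115 CPM in the IP and at 57.5, 56.6, 51.9 and 51.2 CPM in the input. *Pdgfra* was at 79.6, 116, 145 and 126 CPM in the IP and at 73.4, 63.2, 76.3 and 72.1 CPM in the input. Each of the 3 genes was higher in every IP library than in every input library, as for 30.6% of all genes, although the IP libraries of *Pdgfra* spread widely.

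In WT mice, 6 genes passed the adjusted p with higher IP values, all below the fold limit of 1, where 32.7% of all genes passed in this direction without a fold limit. These were *Olig2* (0.99, SE 0.11), *Sox10* (0.99, SE 0.10), *Cspg4* (0.97, SE 0.12), *Olig1* (0.93, SE 0.12), *Pdgfra* (0.89, SE 0.16) and *Neu4* (0.81, SE 0.16). *Gpr17* (0.21, SE 0.12, adjusted p = 0.15) and *C1ql1* (0.26, SE 0.25, adjusted p = 0.38) did not pass. *Bmp4* was lower in the IP and was again the 1 call with the fold limit, at -1.31 (SE 0.20, adjusted p = 3.0e-04), where 12.1% of all genes were called lower. As the values lay near 1, the count of members called rose from 1 to 4 without SAPAP3 WT IP replicate 1 or SAPAP3 WT input replicate 1, to 3 without SAPAP3 WT IP replicate 3 and to 2 without replicate 2 of either group.

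In KO mice, 5 genes exceeded the limit and were called higher: *Cspg4* (1.26, SE 0.09), *Olig2* (1.17, SE 0.11), *Pdgfra* (1.12, SE 0.11), *Sox10* (1.06, SE 0.07) and *Olig1* (1.05, SE 0.08). Of all genes 12.3% were called higher. *Neu4* (0.99, SE 0.18), *Gpr17* (0.33, SE 0.10) and *C1ql1* (0.53, SE 0.21) passed the adjusted p below the limit, 8 genes in all with the 5 above against 36.1% of all genes, and *Bmp4* passed it with a lower value (-0.88, SE 0.28, adjusted p = 0.014). No member passed the test of the difference in IP over input between the 2 genotypes, with values from 0.04 (*Sox10*) to 0.40 (*Bmp4*, SE 0.34), each adjusted p at 1.0 after rounding and no unadjusted p under 0.05 among the 9 genes. Of 16059 genes 0.0% passed that test, and 203 had an unadjusted p under 0.05 (edgeR), while DESeq2 called 1 gene.

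Most mature oligodendrocyte genes moved with the OPC genes in this cohort. Of 10, 4 were called higher in WT (median 0.85), and 5 in KO (median 0.93), with *Cldn11* (1.32 and 1.42), *Mag* (1.29 and 1.40) and *Cnp* (1.19 and 1.31), all of myelin, ahead. *Mbp* (0.16 in WT and 0.17 in KO) and *Mobp* (-0.25 and -0.26) did not pass the adjusted p, and *Mobp* had the opposite sign. The sum below is over all genes of this list. The summed level of the 10 genes was 7182 to 10522 CPM in the SAPAP3 WT IP against 5826 to 6766 CPM in its input, whereas it was 3232 to 5518 CPM in the Control IP against 5684 to 6598 CPM in the Control input. SAPAP3 WT IP replicate 4 had the highest sum of mature oligodendrocyte genes and the highest sum of the 9 OPC genes in its group. Without it, the log2 fold change of *Olig1* was 0.78 and that of *Sox10* 0.88, and both passed the adjusted p (4.3e-05 and 1.8e-05, edgeR).

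A test of the difference between the SAPAP3 cohort in WT mice and the Control cohort was added after these values were seen. IP over input was higher in the SAPAP3 cohort for *Olig1* by 0.86 (SE 0.13, adjusted p = 6.4e-04), *Olig2* by 0.84 (SE 0.13), *Sox10* by 0.82 (SE 0.18) and *Neu4* by 0.65 (SE 0.19, adjusted p = 0.025), 4 of 9 genes, where 9.18% of all genes passed in this direction. *Pdgfra* (0.45, adjusted p = 0.11) and *Gpr17* (0.26, adjusted p = 0.21) passed with the animal as replicate block (adjusted p = 0.046 and 0.048). *Cspg4* (0.25), *C1ql1* (0.40) and *Bmp4* (-0.23) did not pass. With ribosomal protein scaling the median of all genes fell to -0.45 and 0 of 9 genes passed, while relative to that median *Olig1* stood at 0.83 and *Olig2* at 0.82. Of the 10 mature oligodendrocyte genes, 9 were higher in this comparison, as were 5 of 10 microglia markers, and 7 of 10 astrocyte markers were lower. Strain label and cohort cannot be told apart here, nor can age at injection, which was not given for the SAPAP3 WT mice.

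Ratios within a library do not depend on how libraries are scaled, and were computed for the genes that did not follow *Pdgfra*, a choice made after the values were seen. The ratio of *Bmp4* to *Pdgfra* counts was 0.0064 to 0.014 in the Control IP and 0.025 to 0.034 in its input, 0.0039 to 0.0051 in the SAPAP3 WT IP and 0.018 to 0.021 in its input, and 0.0036 to 0.0050 in the SAPAP3 KO IP and 0.012 to 0.025 in its input. The groups did not overlap in any of the 3 comparisons, with mean log2 differences of -1.56, -2.18 and -1.97. The share of all genes whose ratio to *Pdgfra* separates IP from input was not measured, here or for the ratios below. In the Syn cohort the ratios of IP (0.027 to 0.044) and input (0.038 to 0.047) overlapped.

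The ratio of *Gpr17* to *Pdgfra* counts showed the same order. It was 0.467 to 0.565 in the Control IP and 0.604 to 0.781 in the input, and 0.303 to 0.430 against 0.505 to 0.573 in SAPAP3 WT mice. In KO mice it was 0.339 to 0.381 against 0.581 to 0.662. *C1ql1* to *Pdgfra* was also lower in the IP in these 3 comparisons (mean log2 differences -0.57 to -0.66), but higher in the Syn IP (0.073 to 0.078) than in the Syn input (0.062 to 0.070). Each of these non-overlapping ratios had p = 0.0286 in a two-sided exact permutation test, the smallest that 4 against 4 libraries can give. The adjusted p was 0.0545 over the 21 ratio tests, so none passed the correction. The genes were picked because they did not follow *Pdgfra* in these same libraries, so the p-values are no independent support for the differences.

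**Figure D4:**
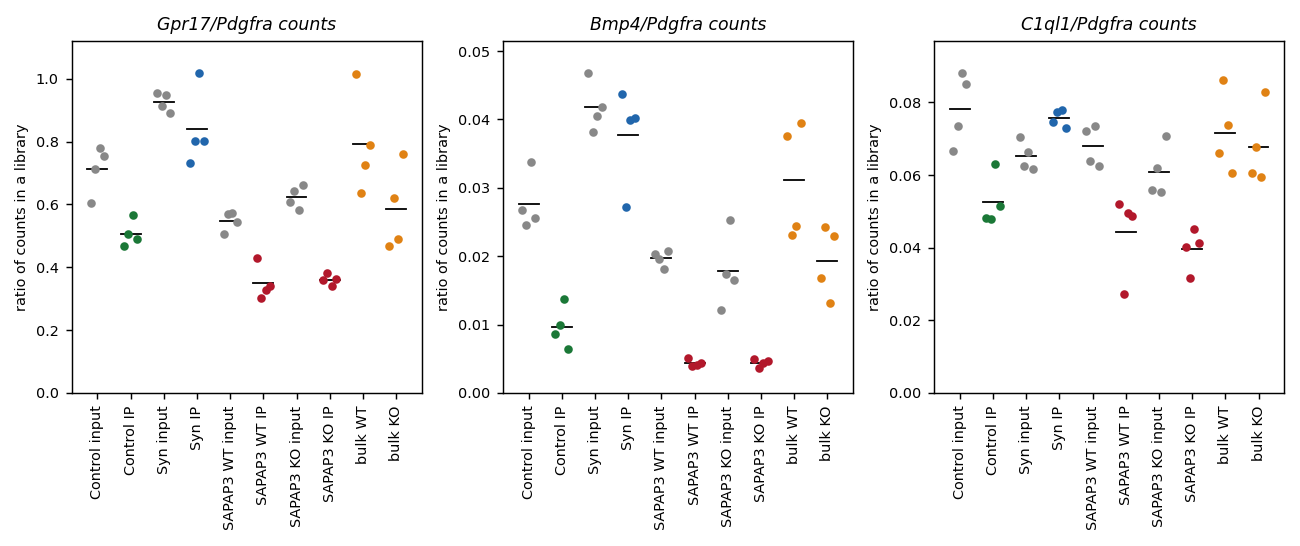
Ratio of *Gpr17*, *Bmp4* and *C1ql1* counts to *Pdgfra* counts within each library (points; linear axis from 0), with the mean of each group as a line. IP points lie below the input points of the same cohort in the Control and SAPAP3 cohorts, and not in the Syn cohort.

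Loss of SAPAP3 was compared in input, IP and bulk striatum, and no OPC gene passed the test in any of them. Of all genes tested, 0.00641% passed in input, 0.0263% in IP and 0.0% in bulk. In bulk, where edgeR called 0 of 16020 genes, 792 had an unadjusted p under 0.05 and DESeq2 called 17. *Dlgap3* itself was thus not called by edgeR in bulk, although its libraries did not overlap there (means of 153 CPM in KO and 333 CPM in WT). The absence of a call in bulk therefore does not by itself show the absence of a difference. In input *Sox10* was at 48.5, 49.9, 42.3 and 44.4 CPM in KO and at 57.5, 56.6, 51.9 and 51.2 CPM in WT mice. Its KO libraries lay below its WT libraries, as for 1.62% of all genes, with a log2 fold change of -0.20 (SE 0.07, adjusted p = 0.73). *Gpr17* had the largest rise in input, 0.25 (SE 0.08, adjusted p = 0.73), with overlapping libraries. The ratio of *Gpr17* to *Pdgfra* counts was 0.581 to 0.662 in KO and 0.505 to 0.573 in WT input (adjusted p = 0.0545, exact permutation test as above).

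In the IP, values from KO over WT ranged from -0.17 (*Sox10*) to 0.35 (*Neu4*, SE 0.20), and each adjusted p was 1.0 after rounding. In bulk striatum *Bmp4* was at 1.39, 1.86, 0.984 and 1.92 CPM in KO and at 3.35, 1.97, 1.66 and 2.90 CPM in WT mice, and *Gpr17* was at 38.8, 47.6, 36.5 and 63.2 CPM in KO and at 90.4, 54.2, 49.5 and 57.9 CPM in WT mice. The groups overlapped for both. The log2 fold changes were -0.72 for *Bmp4* (95% interval -1.35 to -0.09, adjusted p = 0.98) and -0.47 for *Gpr17* (-0.97 to 0.03, adjusted p = 0.98). The same genes had positive values in the IP, 0.33 for both, which did not pass either. The difference in sign between bulk and IP was not tested, and the strain labels differ between these groups.

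Intervals limit what these comparisons can miss. In input the 95% interval of *Pdgfra* ran from -0.08 to 0.21 and that of *Olig1* from -0.23 to 0.10. In bulk they ran from -0.21 to 0.18 and from -0.46 to 0.21. The widest were those of *Bmp4* and, in the IP, *C1ql1* (-0.51 to 0.76). Bulk libraries of 1 genotype differed among themselves: bulk WT replicate 1 and bulk KO replicate 4 had the highest summed OPC level of their groups (424 and 374 CPM, against 285 to 360 and 289 to 309 CPM in the others), and also the highest summed level of mature oligodendrocyte genes (7945 and 8713 CPM). Without bulk WT replicate 1, the value of *Gpr17* in bulk changed to -0.23 and that of *Bmp4* to -0.52.

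**Figure D5:**
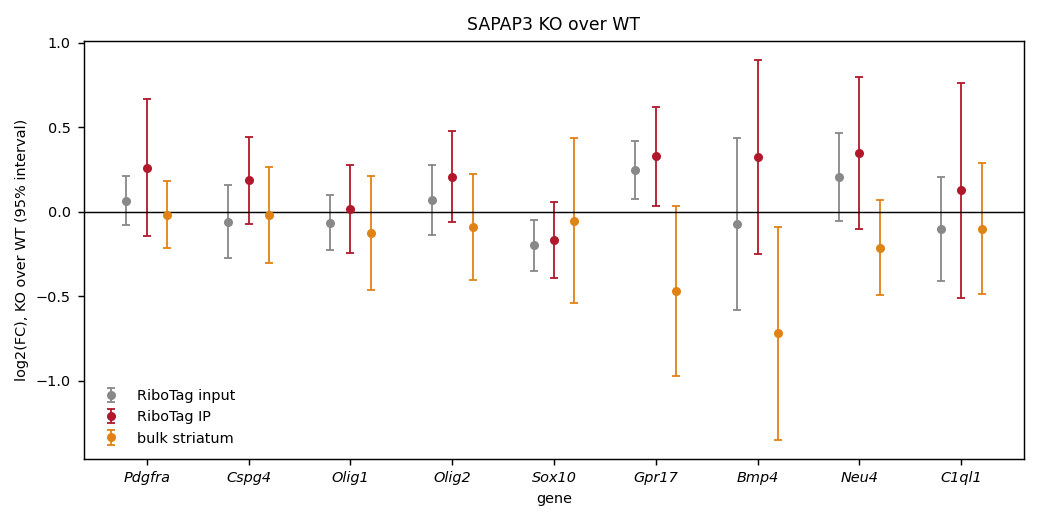
Log2 fold change of SAPAP3 KO over WT (points) with 95% intervals (bars) for the 9 OPC genes in RiboTag input, RiboTag IP and bulk striatum, 4 libraries against 4 in each. No gene passed the adjusted p in any of the 3.

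Across the 10 group means of log2(CPM + 0.5), the 36 pairs of OPC genes had a median Pearson r of 0.91, from -0.03 (*Bmp4* with *Sox10*) to 1.00 (*Olig1* with *Olig2*). All points share the low Syn IP, and the correlations are descriptions without a test. Among 14018 other genes, the most alike were *Plekhg3* for both *Olig1* (r = 0.99) and *Olig2* (0.99), *Aspa*, an enzyme of mature oligodendrocytes, for *Sox10* (0.99), *March8* for *Pdgfra* (0.99), *Sorbs3* for *Cspg4* (0.99) and *Traf4* for *Neu4* (0.98). The patterns of *Gpr17* (*Desi2*, 0.95, and *Sox4*, 0.95), *Bmp4* (*9630013A20Rik*, 0.97) and *C1ql1* (*Ramp2*, 0.98) led to other genes.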

How the data were processed

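RNA-seq was made from RiboTag IP, RiboTag input and bulk striatum, 40 libraries in 10 groups of 4. Per the labels, the authors aligned reads to mm10 with STAR and counted genes with HTSeq; versions, annotation and strand setting were not given in the sources used here. The labels and the study's methods name different library kits. The deposited values were raw read counts per gene, not normalized, in 1 table of 24060 rows and 40 columns, and every count column was used.

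CPM was computed from total counts, and FPKM from RefSeq exon lengths (found for 99.3% of rows). Tests used edgeR 4.0.16 in R 4.3.3 (filterByExpr, TMM, quasi-likelihood, Benjamini-Hochberg over all genes tested), with only the groups compared in each fit. IP over input was called at adjusted p under 0.05 and log2 fold change beyond 1, and KO over WT and interaction terms at adjusted p under 0.05. Alternatives were limma-voom (the study's tool), DESeq2 1.42.0, its size factors, no filter, FPKM above 5 in at least 4 libraries, scaling on 78 ribosomal protein genes, 1 fit of all 40 libraries, *Xist* as covariate (genotype comparisons), a replicate block (IP over input) and leaving out each library.

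IP and input were paired by animal number in the Control and SAPAP3 cohorts and by the number in the title in the Syn cohort, where animal numbers differ. Deviations from group means correlated between paired libraries at 0.26 or more in all 16 pairs, with means of 0.45 (Control), 0.65 (Syn), 0.61 (SAPAP3 WT) and 0.52 (SAPAP3 KO). No pair of replicates agreed within sampling noise (chi-square per degree of freedom at least 3.72). The genotype comparisons are not paired, and where nothing ties libraries to separate animals, p-values measure the spread between libraries.

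The 9 genes and all lists were chosen with earlier results of these data known. All 9 genes were named in every comparison, and of other lists at most 4 genes, those with the largest change among the called; for likeness, the closest 3 genes by Pearson r, of those averaging 1 CPM or more. *Pdgfa* was named for its role after its value was seen. The test between the SAPAP3 and Control cohorts and the ratios within libraries were added after the data were seen.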

Additional observations from a re-analysis of the deposited data

Results flagged for a closer look

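Among 90 groups of 4 libraries (9 genes in 10 groups), 4 held an outlying library. Its gap to the nearest of the others, divided by the range of the group, exceeded Dixon's 95% critical value. By chance about 1 in 20 groups would do so. *Cspg4* was lowest in Syn IP replicate 2 (7.41 CPM, the others 8.20 to 8.36). *Olig2* was lowest in Control IP replicate 2 (23.2 CPM, the others 26.4 to 26.6), the library that also had the lowest summed level of mature oligodendrocyte genes in its group (3232 CPM). *Olig1* was highest in SAPAP3 WT IP replicate 4 (164 CPM, the others 115 to 123), and *Sox10* was highest in bulk KO replicate 4 (53.0 CPM, the others 31.7 to 35.3). Both of these libraries had the highest summed level of mature oligodendrocyte genes in their groups (10522 and 8713 CPM).

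IP over input differed between the Control and Syn cohorts for all 9 genes by the interaction term. The differences on the log2 scale were 2.95 (*Pdgfra*), 2.57 (*Cspg4*), 2.14 (*Olig1*), 2.34 (*Olig2*), 1.86 (*Sox10*), 2.61 (*Gpr17*), 1.57 (*Bmp4*), 2.46 (*Neu4*) and 2.15 (*C1ql1*), with the Control cohort higher. Between the SAPAP3 cohort in WT mice and the Control cohort, IP over input differed for *Olig1* (0.86), *Olig2* (0.84), *Sox10* (0.82) and *Neu4* (0.65), with the SAPAP3 cohort higher.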

How the results depend on the processing

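The 9 genes kept all 9 calls in the Syn cohort, and in the difference between the Control and Syn cohorts, under every alternative in which they were tested; with FPKM above 5 as the filter, 5 members were tested and called in the Syn cohort. That filter left 6 members in the other IP comparisons, of which 0 were called in the Control cohort, 0 in SAPAP3 WT and 3 in SAPAP3 KO mice. In the Control cohort the 1 call became 0 with all 40 libraries in 1 fit, where *Bmp4* just missed the fold limit. In SAPAP3 WT mice, where 6 values lay just under the fold limit, 3 members were called with the DESeq2 test, 3 with DESeq2 size factors, 4 without a filter and 4 with all 40 libraries in 1 fit. Leaving out 1 library gave 0 to 1 calls in the Control cohort and 1 to 4 calls in SAPAP3 WT mice. The replicate block left 1 call in the Control cohort, 9 in the Syn cohort, 1 in SAPAP3 WT and 5 in SAPAP3 KO mice, 9 between the Control and Syn cohorts and 0 between genotypes, and it gave 6 calls in place of 4 in the added test of the SAPAP3 against the Control cohort.

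Scaling on ribosomal protein genes moved the most. It raised the median of all genes to 1.17 in the Control cohort, 0.45 in the Syn cohort, 0.71 in SAPAP3 WT, 0.63 in SAPAP3 KO mice and 0.72 in the difference between the Control and Syn cohorts, and lowered it to -0.45 in the added test. Under it 8 members were called higher in the Control cohort and 7 in SAPAP3 WT mice. These counts are no result about the members alone, since the median of all genes itself exceeded the fold limit of 1 in the Control cohort. Counts called over all genes are given below, and the main fits tested 15476 (Control) and 15587 (SAPAP3 WT) genes. The same scaling turned *Gpr17* (1.16), *C1ql1* (1.08) and *Bmp4* (0.13) positive in the Control cohort. In the added test 0 members passed under it, and *Pdgfra* (-0.013), *Cspg4* (-0.21), *Gpr17* (-0.21) and *C1ql1* (-0.05) turned negative. Ribosomal protein scaling also turned *Olig1* in KO over WT IP to -0.0098 and *Sox10* in the difference between genotypes to -0.034. *Xist* as covariate turned *Olig1* in KO over WT IP to -0.058, and all 40 libraries in 1 fit turned *Gpr17* in the Control cohort to 0.032. The cause was not tested.

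Leaving out 1 library turned the sign of values near 0 that had passed no test. The ranges were -0.083 to 0.019 for *Gpr17* in the Control cohort; -0.12 to 0.0036 for *Cspg4*, -0.029 to 0.13 for *Olig2* and -0.30 to 0.069 for *Bmp4* in KO over WT input; -0.044 to 0.15 for *Olig1* and -0.054 to 0.33 for *C1ql1* in KO over WT IP; -0.077 to 0.058 for *Pdgfra*, -0.10 to 0.12 for *Cspg4*, -0.24 to 0.0066 for *Olig1*, -0.21 to 0.017 for *Olig2*, -0.23 to 0.090 for *Sox10* and -0.23 to 0.029 for *C1ql1* in bulk; and -0.034 to 0.14 for *Sox10* and -0.0078 to 0.26 for *Neu4* in the difference between genotypes. For ratios to *Pdgfra* the ranges were -0.0093 to 0.16 (*Gpr17*) and -0.039 to 0.12 (*Bmp4*) in KO over WT IP, and -0.18 to 0.0089 (*C1ql1*) in bulk.

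Over all genes, the count called fell with FPKM above 5 from 4157 to 1705 (Control), from 2635 to 509 (Syn), from 3590 to 1272 (SAPAP3 WT), from 3713 to 1424 (SAPAP3 KO) and from 11469 to 7177 (Control against Syn), and rose with ribosomal protein scaling to 9952 (Control), 5915 (SAPAP3 WT) and 8760, from 3280, in the added test, where the replicate block gave 4980. In KO over WT, DESeq2 called 8 in input, 8 in IP and 17 in bulk, and the fit of all 40 libraries 8 in input and 18 in bulk, against 1, 4 and 0; in IP, FPKM above 5 gave 2 and *Xist* as covariate 1. In the difference between genotypes DESeq2 and the fit of all 40 libraries each gave 1 gene against 0. TMM-scaled library sizes moved 32 of 90 group levels of the members by more than 1 SD. Depth limits *Bmp4* the most.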
